A study of Mus musculus with 6 samples.

Results

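The milk protein genes were followed in droplet single-cell RNA libraries of a mouse mammary tumor. The 10 genes Csn1s1, Csn1s2a, Csn2, Csn3, Lalba, Wap, Wfdc18, Trf, Ltf and Mfge8 were taken by symbol from the 31053 genes of the count table, and no measured value entered the choice. The tumors came from MMTV-PyMT mice of 10 weeks, female according to the methods, in which the mouse mammary tumor virus promoter drives the polyoma middle T antigen. Minced tumor was digested in 0.25% type I collagenase either in a tube for 60 min (the control) or in a microfluidic platform. Platform cells were collected as a 15 min and a 60 min interval. In this format the released cells are eluted, collagenase is replaced and the remaining tissue is processed further. The 60 min platform library thus holds cells released after the 15 min collection, not all cells of a 60 min digest. Dead cells were sorted out in all 3 preparations before loading. Each of the 3 conditions is 1 library. By the study's reporting summary, control and platform conditions of a replicate used tissue of the same mouse, so that no spread between mice was measured. Kidneys of male C57BL/6 mice of 12 weeks, prepared in the same 3 ways with 1 library each, form the rest of the series.

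Caseins are the main proteins of milk. Csn1s1, Csn1s2a and Csn2 encode calcium-binding caseins that Csn3, kappa-casein, keeps in solution as micelles, and Lalba encodes alpha-lactalbumin, the subunit that turns a galactosyltransferase into lactose synthase. Wap (whey acidic protein) and Wfdc18 encode small whey proteins with WAP domains, Trf (transferrin) and Ltf (lactoferrin) bind iron, and Mfge8 (lactadherin) coats milk fat globules and binds phosphatidylserine on dying cells. In the mammary gland many of these genes are induced in alveolar luminal cells by prolactin, which acts through its receptor, JAK2 and STAT5, together with the transcription factor ELF5, whereas Trf and Mfge8 are also made in other tissues.

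The 4 casein genes lay within 266 kb of chromosome 5 in the mm10 genome, at positions 87666208 to 87682578 (Csn1s1), 87692624 to 87699630 (Csn2), 87774567 to 87788797 (Csn1s2a) and 87925579 to 87932665 (Csn3). The other 6 were spread over 4 chromosomes. Wap (6635482 to 6638637) and Wfdc18 (83709015 to 83711348) are on chromosome 11, Trf (103204001 to 103230444) and Ltf (111019271 to 111042767) on chromosome 9, Lalba (98480400 to 98482721) on chromosome 15 and Mfge8 (79133768 to 79149060) on chromosome 7, all as protein-coding genes of the GENCODE M21 annotation. RefSeq promoter entries on GRCm38.p6 were found for 8 of the 10 genes, and Csn3 and Trf had none. In the 250 bases before each start, the letters TTCNNNGAA, the general form of a STAT5 site and the same on both strands, were present in 2 of the 8 (Csn1s1 and Csn2) and in 7.02% of 32841 promoters of all genes. The first base of the match stood 100 bases before the start in Csn1s1 and 93 bases before it in Csn2. TATAAA, searched on both strands, was present in Wfdc18 alone among the 8 and in 12.4% of all promoters. A match is a description of these letters and not evidence of binding.

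The promoters of the 3 caseins that were rare in the tumor epithelial cells are shown with that of Wfdc18, the most abundant of the genes with an entry. The match to TTCNNNGAA is in capitals. Csn1s1 spans chr5:87665958-87666207, Csn1s2a chr5:87774200-87774449 and Wfdc18 chr11:83708754-83709003, all on the plus strand. For Csn2, whose GENCODE gene model extends into this stretch, only 29 bases around the match are given, at chr5:87699500-87699528 on the minus strand.
Csn1s1: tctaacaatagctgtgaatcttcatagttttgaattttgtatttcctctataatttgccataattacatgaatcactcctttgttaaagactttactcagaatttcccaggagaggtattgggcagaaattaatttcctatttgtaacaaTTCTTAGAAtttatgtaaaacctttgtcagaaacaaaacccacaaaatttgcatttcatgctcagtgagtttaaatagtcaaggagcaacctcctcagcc
Csn1s2a: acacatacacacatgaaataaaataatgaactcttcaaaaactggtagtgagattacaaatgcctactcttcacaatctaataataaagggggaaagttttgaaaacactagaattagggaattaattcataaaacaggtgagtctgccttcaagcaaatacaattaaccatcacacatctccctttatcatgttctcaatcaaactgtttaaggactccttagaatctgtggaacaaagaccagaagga
Csn2: tcacgtagacTTCTTGGAAttgaagggac
Wfdc18: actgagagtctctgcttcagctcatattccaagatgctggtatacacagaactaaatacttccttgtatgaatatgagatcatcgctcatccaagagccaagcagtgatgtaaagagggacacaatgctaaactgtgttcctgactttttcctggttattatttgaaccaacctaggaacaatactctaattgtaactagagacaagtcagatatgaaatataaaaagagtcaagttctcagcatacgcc

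Cells numbered 8177, 8198 and 8152 and unique molecular identifiers (UMIs, 1 for each captured RNA molecule) 90414805, 101222030 and 97006183 in the tumor libraries, named here always in the order control, 15 min, 60 min. Cells with 200 to 4000 detected genes and no more than 25% of UMIs from mitochondria, 70.1 to 73.9% of each library, were kept. Tumor epithelial cells were those with at least 2 UMIs of Epcam, an adhesion molecule of epithelia, which gave 3426, 4060 and 2669 cells at medians of 8997.5, 9902 and 9694 UMIs. Of these, 5.66, 4.16 and 7.19% also passed the marker gate of another cell type and may be doublets, against which the ceiling of 4000 genes was the sole measure. Epithelial markers that the gate did not use were high, with Krt18 at 3438, 2132 and 2183 CPM and Cldn3 at 1063, 1179 and 1009.7 CPM, where CPM is the UMIs of a gene per 1000000 UMIs of the gated cells of a library. Between 16 and 21 cell barcodes were shared by each pair of libraries and 0 by all 3. With 1 library per condition no test between conditions was possible. The 95% intervals given here (exact Poisson for levels, exact binomial for shares and ratios) cover counting error only, not the difference between tumors or preparations. For levels and ratios they also leave out the uneven spread of UMIs over cells.

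Tumor epithelial cells carried a strong but selective milk protein signature (levels below are CPM). UMIs count molecules at the 3' end, so that levels of different genes were not scaled by length. The 10 genes together made up 3.58, 4.19 and 3.59% of all epithelial UMIs, or 349, 424 and 364 UMIs per cell. Most of this came from 3 genes.

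Csn3, which coats the casein micelle, stood at 12489 (12452 to 12527), 14295 (14258 to 14331) and 12538 (12496 to 12581) and ranked 6, 5 and 7 among all genes. Wfdc18 stood at 11401, 13135 and 10695 (ranks 8, 6 and 9). Trf stood at 7040, 8254 and 6516 (ranks 13, 11 and 13). For each of the 3 genes the 15 min library was the highest, and the order Csn3, Wfdc18, Trf was the same in all 3 libraries.

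Lalba, Ltf and Mfge8 formed a middle group between 1009 and 3052. Lalba, needed for lactose, was at 1776 (1762 to 1790) in the control, 1907 (1893 to 1920) at 15 min and 1009 (997 to 1021) at 60 min. Ltf was at 1770.5 (1756 to 1785), 2682 (2666 to 2698) and 3052 (3032 to 3073), and Mfge8 at 1105 (1094 to 1117), 1327 (1316 to 1338) and 1833 (1817 to 1849). Lalba and Ltf did not differ beyond counting error in the control, where their intervals overlapped, whereas at 60 min Ltf was the highest of the 3 and Lalba the lowest.

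The remaining 4 genes, which include 3 of the 4 caseins, were far below these in each library. Wap was at 75.6 (72.7 to 78.6), 81.5 (78.8 to 84.3) and 80.3 (77.0 to 83.7) and Csn1s1 at 71.3 (68.5 to 74.3), 92.6 (89.7 to 95.6) and 87.6 (84.1 to 91.2). Their intervals overlapped in the control, while Csn1s1 was above Wap in both platform libraries. At 15 min, however, 1 cell held 649 of the 3810 Csn1s1 UMIs and 1 cell held 260 of the 3353 Wap UMIs. The intervals leave out this spread over cells, so the order of the 2 genes at 15 min is not settled. Csn2, beta-casein, was at 27.5 (25.8 to 29.4), 51.0 (48.9 to 53.2) and 45.6 (43.1 to 48.3) and Csn1s2a was the lowest of the 10 at 14.7 (13.4 to 16.1), 30.5 (28.8 to 32.2) and 18.6 (17.0 to 20.3). The caseins of 1 gene cluster were thus present at levels from 14.7 to 14295 CPM.

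**Figure D1:**
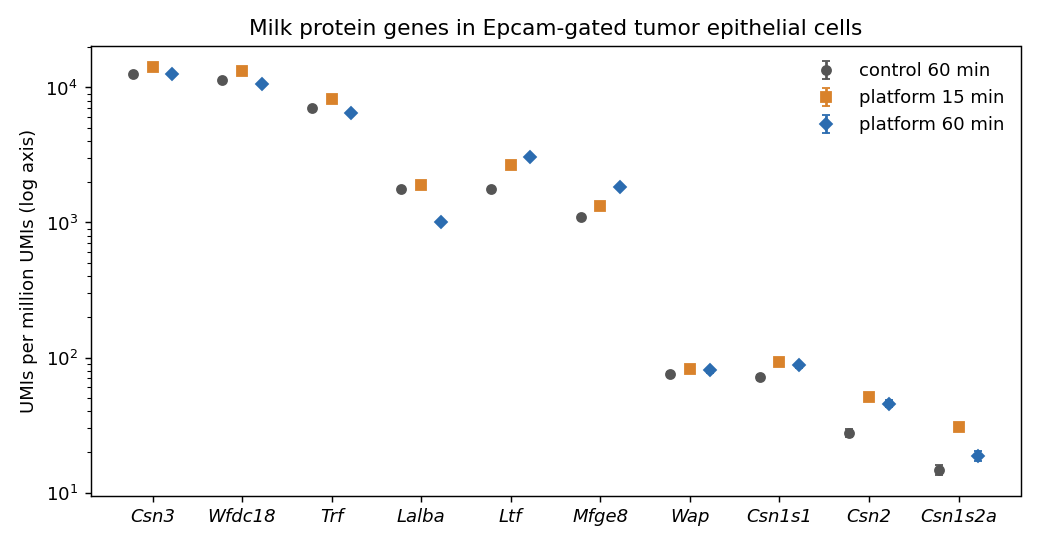
Level of each milk protein gene in tumor epithelial cells (CPM, log axis) in the control (circles), 15 min (squares) and 60 min (diamonds) libraries, with exact Poisson 95% intervals that are often smaller than the symbol. Csn3, Wfdc18 and Trf sit between 6516 and 14295, Lalba, Ltf and Mfge8 between 1009 and 3052, and Wap, Csn1s1, Csn2 and Csn1s2a below 100.

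How the platform intervals compared with the 60 min control was described by the fold between libraries, and a gene was counted as past when it was over 1.5 times, or under 1/1.5 of, the control. At 15 min, 3 of the 10 milk protein genes were past this limit and higher, where 20.4% of 14404 genes tested were past it (11.9% higher and 8.45% lower). Csn1s2a was at 2.07 (1.86 to 2.30) times the control, Csn2 at 1.85 (1.71 to 2.005) times and Ltf at 1.51 (1.4997 to 1.53) times. The other 7 were between 1.07 (Lalba) and 1.30 (Csn1s1) times, and none was lower. The median of all genes tested was itself at 1.14 times the control (0.20 on the log2 scale), against 1.19 for the 10, so that Csn3 at 1.14, Wfdc18 at 1.15 and Trf at 1.17 times the control were close to the median gene. With TMM factors, which bring that median to 1.01, Ltf fell to 1.34 times the control and was no longer past the limit, Lalba was at 0.946 times, and the calls over all genes went from 1720 higher and 1217 lower to 840 higher and 1661 lower.

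At 60 min, 4 of the 10 were past the limit, 3 higher and 1 lower, beside 13.8% of all genes tested (7.91% higher and 5.93% lower). Lalba was the lower one, at 0.568 (0.560 to 0.576) times the control. Ltf was at 1.72 (1.71 to 1.74) times, Mfge8 at 1.66 (1.64 to 1.68) times and Csn2 at 1.66 (1.52 to 1.81) times the control. Csn3 was level with the control at 1.00 (0.999 to 1.01) times, and Wfdc18, Trf, Wap, Csn1s1 and Csn1s2a were between 0.925 and 1.27 times. The median of all genes tested was 0.996, and the calls on Lalba, Ltf and Mfge8 were the same with TMM factors, at 0.571, 1.73 and 1.67 times.

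Set against the 15 min interval of the platform, the 60 min interval was lower for Lalba, at 0.529 (0.522 to 0.537) times, and for Csn1s2a, at 0.611 (0.550 to 0.678) times, and 0 of the 10 were higher past the limit, beside 19.9% of all genes tested (9.59% higher and 10.3% lower). Mfge8, at 1.38 (1.36 to 1.40) times, and Ltf, at 1.14 (1.13 to 1.15) times, were the only ones of the 10 above 1 in this comparison, whose 2 libraries also enter the comparisons with the control.

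**Figure D2:**
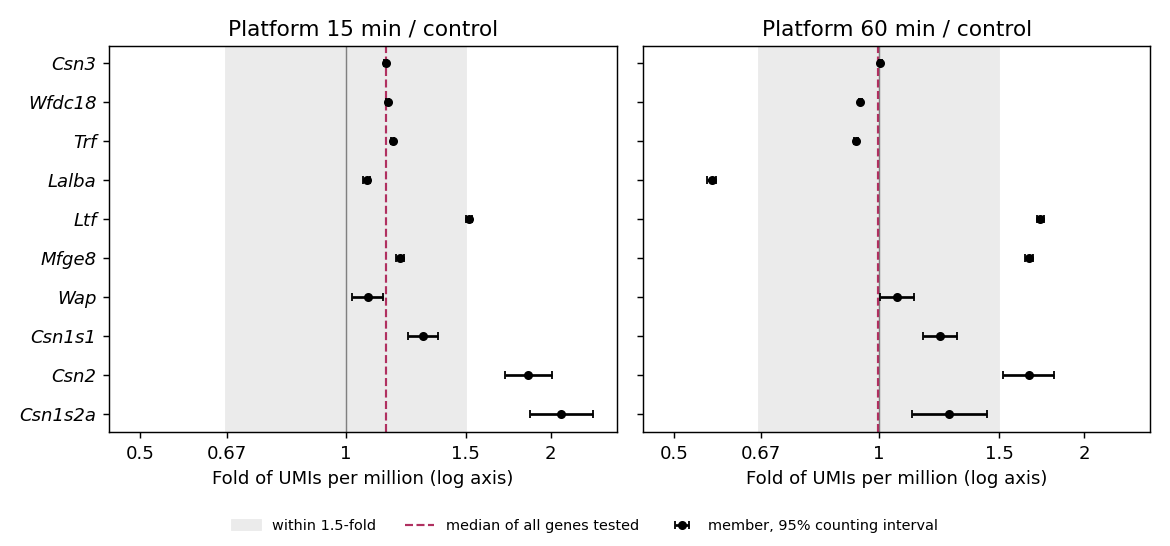
Fold of each milk protein gene in epithelial cells of the 15 min (left) and 60 min (right) platform libraries over the control (log axis), with 95% counting intervals, the range within 1.5-fold shaded and the median of all genes tested dashed. Csn1s2a, Csn2 and Ltf lie to the right of the shaded range at 15 min. At 60 min Ltf, Mfge8 and Csn2 lie to its right and Lalba to its left.

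Several measures of the gate moved beside these folds. Of the 6 epithelial markers that the gate did not use, 3 were lower by more than 1.5-fold at both times, with Krt8 at 0.490 and 0.583, Krt18 at 0.620 and 0.635 and Cldn4 at 0.306 and 0.627 times the control at 15 and 60 min. The other 3 were within the limit, with Krt7 at 1.16 and 1.17, Cldn3 at 1.11 and 0.94997 and Cldn7 at 0.861 and 0.792 times. The 6 summed to 8345, 5449 and 5643 CPM, most of it Krt8 and Krt18. All 4 fibroblast markers were detected in the epithelial gate, at a sum of 14.9, 36.8 and 153 CPM, as were all 4 endothelial markers, at 6.11, 13.2 and 27.7 CPM. The 4 macrophage markers summed to 521, 488 and 643 CPM and the 4 T and NK markers to 46.1, 35.5 and 14.8 CPM. Granulocyte markers (4 of 4) summed to 153, 220 and 208 CPM, of which G0s2, a lipolysis inhibitor that is not specific to granulocytes, gave 129, 217 and 207 CPM, while Retnlg, a neutrophil gene, was at 22.4, 1.51 and 0.111 CPM. Dendritic markers (4 of 4) to 20.1, 4.62 and 31.9 and pericyte markers (4 of 4) to 21.1, 30.6 and 20.95 CPM. Without the cells that also passed another gate, Lalba was at 0.570, Ltf at 1.75 and Mfge8 at 1.68 times the control at 60 min, and at 15 min Csn2 was at 1.35 and Ltf at 1.49 times, both within the limit.

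The folds of the rare caseins rested on few cells. To compare the share of cells with a UMI at equal depth, every cell was thinned to 2000 UMIs, which left out 155, 76 and 75 shallower epithelial cells and kept 3271, 3984 and 2594. Csn2 was then detected in 1.10 (0.772 to 1.52), 0.728 (0.488 to 1.04) and 0.964% (0.625 to 1.42) of epithelial cells (1.84, 1.45 and 1.61% unthinned), with intervals that overlapped between the libraries. Its 10 highest cells held 78.5, 91.4 and 92.1% of its UMIs, and the highest cell alone 414 of 919 UMIs in the control, 509 of 2098 at 15 min and 278 of 1235 at 60 min. Without the highest cell of each library Csn2 was at 2.55 and 2.34 times the control, and without the 10 highest it was at 0.742 and 0.604 times, so that its direction in both comparisons depended on these cells.

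Csn1s2a was detected in 1.93, 2.28 and 1.73% of thinned epithelial cells, and its 10 highest cells held 28.7, 56.9 and 55.4% of its UMIs. Without them it was at 1.25 and 0.793 times the control. Csn1s1 was detected in 4.77, 4.04 and 4.74% of thinned cells, with 39.7, 48.0 and 34.5% of its UMIs in 10 cells and 649 of 3810 UMIs in a single cell at 15 min. Wap reached 9.17, 8.16 and 7.86% of thinned cells, and its 10 highest cells held 14.1, 22.2 and 27.8% of its UMIs.

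The upper limit on genes per cell bore on the same genes. It removed 1018 control, 1447 15 min and 704 60 min cells that passed the Epcam gate, at medians of 27725, 24674 and 27406.5 UMIs. In the removed cells Csn2 was at 131, 73.0 and 52.7 CPM, with 1303 UMIs in a single control cell and 1033 in a single 15 min cell. With these cells kept, Csn2 turned to 0.791 times the control at 15 min and 0.624 times at 60 min, Csn1s2a was at 1.03 and 0.745 times and Csn1s1 at 0.859 and 0.894 times. For Lalba, Ltf and Mfge8 at 60 min the values with these cells were 0.506, 1.76 and 1.76 times.

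The abundant genes were spread widely. Csn3 was detected in 92.5, 93.0 and 88.6%, Trf in 92.5, 94.0 and 91.8% and Wfdc18 in 87.8, 86.7 and 82.0% of thinned epithelial cells. A median cell held 22, 26 and 21 UMIs of Csn3 among its 2000, and 9, 13 and 9 of Trf. Wfdc18 was more uneven, with medians of 11, 11 and 10 UMIs but 158, 176 and 156 UMIs at the 99th percentile of cells, and the 10% of cells with the most held 43.1 to 45.1% of its UMIs, against 24.8 to 27.3% for Csn3.

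The middle group differed in how a change in level appeared over cells. Lalba was detected in 53.1 (51.3 to 54.8), 51.5 (49.9 to 53.0) and 37.2% (35.3 to 39.1) of thinned cells, so that its lower level at 60 min went with a smaller share of cells, and the 90th percentile was 12, 12 and 7 UMIs. Ltf was detected in 35.4 (33.8 to 37.1), 39.7 (38.2 to 41.2) and 38.2% (36.3 to 40.1) of thinned cells, while its 99th percentile was 44, 61 and 75 UMIs, and 73.1 to 75.7% of its UMIs lay in 10% of the cells. Mfge8 was detected in 56.6 (54.9 to 58.4), 60.0 (58.4 to 61.5) and 69.7% (67.9 to 71.4) of thinned cells, with a median of 1, 1 and 2 UMIs. Lalba and Mfge8 thus moved in the share of cells, in opposite directions, and Ltf more in its highest cells than in that share.

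**Figure D3:**
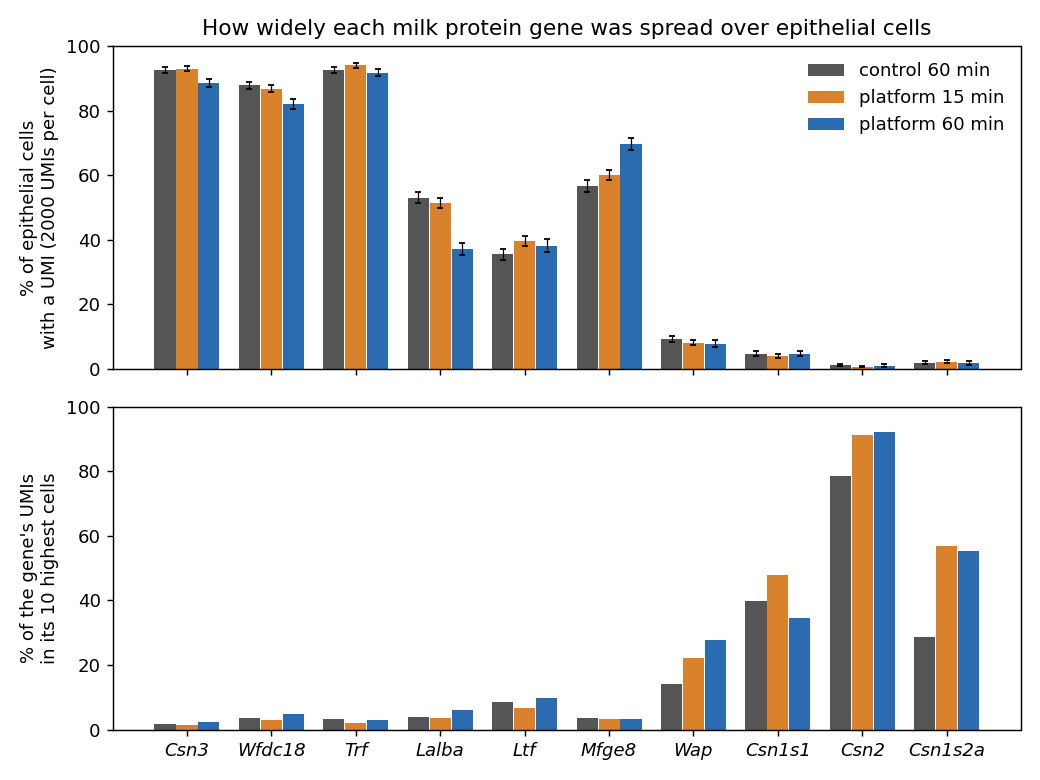
Top, percent of epithelial cells with at least 1 UMI of each gene after thinning to 2000 UMIs per cell, with exact binomial 95% intervals; bottom, percent of a gene's UMIs held by its 10 highest cells before thinning, for the control (grey), 15 min (orange) and 60 min (blue) libraries. Csn3, Wfdc18 and Trf are in 82.0 to 94.0% of cells, whereas Csn2 is in 0.728 to 1.10% and has 78.5 to 92.1% of its UMIs in 10 cells.

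Free RNA released by damaged cells enters every droplet, and a milk protein UMI in a leukocyte may come from it. The level of a gene in another cell type as a percent of its epithelial level was therefore set beside the same percent for the 6 epithelial markers summed, the reference, which was 1.02, 0.985 and 0.791% in macrophages, 1.39, 1.54 and 0.899% in T and NK lymphocytes and 1.68, 1.36 and 0.646% in endothelial cells. Over these 3 cell types in the 3 libraries, Csn3 was between 0.754 and 1.39 times the reference and Wfdc18 between 0.614 and 1.16 times. Lalba was between 0.445 and 1.33 times and Ltf between 0.418 and 1.23 times. These 4 genes thus ran from 0.418 to 1.39 times the reference, and the part of free RNA in them was not tested. Intervals of these multiples, here and below, hold the reference fixed and leave out its own counting error and the spread among its 6 genes. In control endothelial cells Krt8 was at 63.8 CPM against 2946 in epithelial cells, and Cldn3 at 7.80 against 1063 CPM. An interval above 1 thus compares a gene with the sum of the 6, not with each of them. On that footing the interval lay above 1 for Csn3 in macrophages (1.39, 1.32 to 1.47) and in T and NK lymphocytes (1.21, 1.05 to 1.38). It also did for Wfdc18 in macrophages (1.16, 1.09 to 1.23), all in the 15 min library. In these T and NK lymphocytes the reference rested on few UMIs (25 of Krt8 and 22 of Krt18), so whether Csn3 exceeded it there is not settled. By share of cells, Csn3 was found in 24.6, 34.2 and 14.6% of thinned macrophages and in 30.1, 44.3 and 21.8% of thinned T and NK lymphocytes, at median depths before thinning of 11806, 9499 and 11774 UMIs and 7437.5, 4823 and 4759 UMIs per cell.

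The 4 rare genes had few UMIs outside the epithelial gate. Summed over a cell type and library, the 9 values of macrophages, T and NK lymphocytes and endothelial cells ran from 0 to 17 UMIs for Csn1s1, 0 to 12 for Wap, 0 to 9 for Csn2 and 0 to 4 for Csn1s2a. The largest, 17 UMIs of Csn1s1 in 676 control macrophages, was 2.14 (1.24 to 3.42) CPM. It was 2.92 (1.70 to 4.69) times the reference. In macrophages the interval also lay above 1 for Csn1s1 at 15 min, at 2.42 (1.35 to 3.99) times. The same held for Csn2 in the control, at 3.12 (1.25 to 6.46) times on 7 UMIs, and at 15 min, at 2.34 (1.01 to 4.62) times on 8 UMIs. The lower limit of 1.01 leaves no room for the counting error of the reference. For the other values with UMIs of these 4 genes in the 3 cell types the interval held 1. Subtracting the lowest level per cell of the other gates from the epithelial cells took none of the 10 genes across the 1.5-fold limit in either direction. These gates included granulocytes, at medians of 2128, 1840.5 and 1950 UMIs per cell. The amount taken off was thus small beside the epithelial level, and this outcome cannot decide the part of free RNA in the folds.

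Trf and Mfge8 departed from the reference. In macrophages, which are known to handle iron, Trf was at 510 (494 to 526), 539 (522 to 557) and 505 (494 to 517) CPM, which was 7.07 (6.85 to 7.29), 6.64 (6.42 to 6.86) and 9.81 (9.58 to 10.0) times the reference. After thinning it was found in 59.1, 62.7 and 59.2% of macrophages against 20.2, 30.3 and 13.9% of T and NK lymphocytes. In T and NK lymphocytes Trf was at 1.56, 0.961 and 1.51 times and in endothelial cells at 1.29, 1.03 and 1.45 times the reference, far below macrophages in all 3 libraries, and in 22 dendritic cells of the 60 min library it was at 3.68 (2.74 to 4.84) times.

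Mfge8 was high in stromal and vessel cells. In pericytes, the contractile cells that wrap capillaries, it was at 641 (497 to 814), 964 (821 to 1126) and 871 (793 to 955) CPM in 14, 25 and 74 cells. That was 58.0, 72.6 and 47.5% of its epithelial level and 56.2 to 73.0 times the reference. The pericyte reference rested on few UMIs, with 1, 1 and 8 of Krt8 and 6, 6 and 6 of Krt18, so these multiples are rough. Fibroblasts held 254, 340 and 600 CPM in 17, 23 and 128 cells (17.3, 20.3 and 59.6 times the reference) and endothelial cells 243, 316 and 239 CPM in 248, 216 and 706 cells (13.0, 17.5 and 20.2 times). Macrophages, at 18.4, 26.2 and 17.0 CPM, were at 1.62, 2.002 and 1.17 times the reference. None of these cell types exceeded the epithelial cells of its library, in which Mfge8 was at 1105, 1327 and 1833 CPM.

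**Figure D4:**
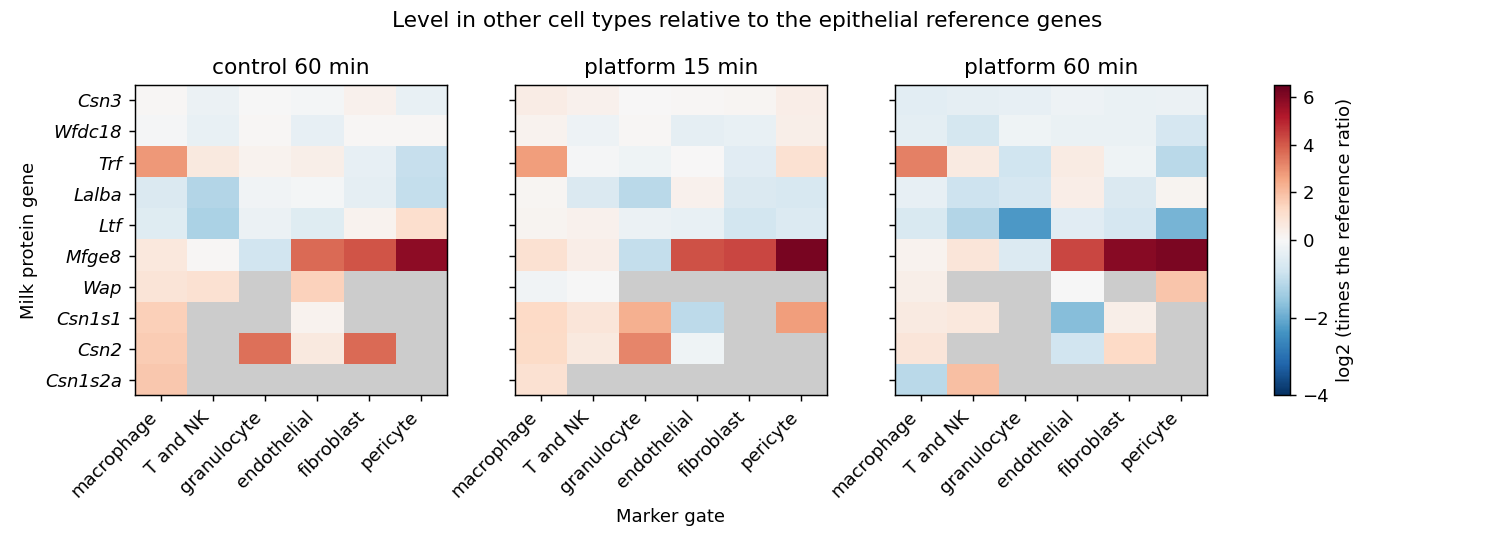
Level of each milk protein gene in 6 other cell types of the control, 15 min and 60 min libraries, as a percent of its epithelial level divided by the same percent for 6 epithelial reference genes (colour, log2 scale; grey, no UMI). Values near 0 follow the reference. Trf in macrophages (6.64 to 9.81 times) and Mfge8 in endothelial cells, fibroblasts and pericytes (13.0 to 73.0 times) stand above it in all 3 libraries. The pericyte multiples rest on few reference UMIs and are rough.

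Within the epithelial gate the milk protein genes followed the luminal and basal markers. Cells with at least 2 UMIs of Krt5, a keratin of basal cells, numbered 14, 21 and 86 (0.409, 0.517 and 3.22% of the gate). They carried Acta2, a contractile protein of myoepithelial cells, at 955, 1211 and 947 CPM, against 0.361, 0.977 and 12.3 in the other epithelial cells. In them Csn3 was at 939, 778 and 969 CPM (0.0749, 0.0542 and 0.0752 times the other epithelial cells), and Lalba at 15.8, 32.9 and 14.3 CPM (0.00886, 0.0172 and 0.0137 times). Mfge8, at 0.542, 0.900 and 0.685 times, was the least reduced of the 10 in each library, and Trf was at 0.321, 0.250 and 0.303 times. Ltf differed between the libraries in these cells, at 39.5 and 23.3 CPM in the control and at 60 min but 1036 CPM, or 0.385 times the other epithelial cells, at 15 min, where 21 cells were sampled.

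Elf5, the luminal factor that works with STAT5, had at least 2 UMIs in 50.2, 61.7 and 53.3% of the epithelial cells. All 10 genes were higher in CPM in these cells than in the rest in each library. The ratio was 1.55, 1.42 and 1.72 for Csn3, 1.63, 1.94 and 2.03 for Lalba, 1.89, 1.79 and 2.74 for Ltf and 2.11, 7.21 and 5.21 for Csn2. The Elf5 cells were also deeper, at medians of 11648, 11627 and 11485 UMIs against 6362, 7175 and 7506, and the part of depth in these ratios was not tested. The fall of Lalba at 60 min was present in both kinds of cells, at 2085 and 1248 CPM in the Elf5 cells of the control and 60 min libraries and at 1280 and 615 CPM in the rest.

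Cells with at least 2 UMIs of Prlr, the prolactin receptor, made up 15.8, 27.5 and 15.7% of the gate. They were deeper, at medians of 12856, 12064 and 12009.5 UMIs against 8291, 9067 and 9088 in the rest. Relative to the rest, Lalba was at 1.21, 1.37 and 1.48 times, Trf at 1.33, 1.26 and 1.36 times and Csn1s1 at 1.71, 1.59 and 1.81 times, whereas Wfdc18 was at 0.985, 0.884 and 0.999 times. Csn2 went from 0.111 times in the control to 1.08 and 2.07 times in the platform libraries, again on few cells. In cycling cells, with at least 2 UMIs of Mki67 plus Top2a (124, 63 and 86 cells), 7 of the genes were lower than in the rest in all 3 libraries, among them Wfdc18 at 0.448, 0.551 and 0.424 times, Mfge8 at 0.320, 0.658 and 0.452 times and Lalba at 0.693, 0.565 and 0.351 times. Csn1s1 was higher in the cycling cells of the control and 60 min libraries (2.73 and 3.85 times) and lower at 15 min (0.181 times). The cycling cells were also deeper, at medians of 11478.5, 13478 and 13498 UMIs against 8926.5, 9802 and 9560. The part of depth in the ratios of the Prlr and cycling cells was not tested.

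Over single epithelial cells thinned to equal depth, the genes fell into groups by their correlation (Pearson's r of log(1 + UMIs), a description over 3271, 3984 and 2594 cells of 1 library each). Csn3 and Trf were the closest pair, with r of 0.57, 0.60 and 0.58, and Lalba was joined to both at 0.33 to 0.36. Ltf was joined to Wfdc18 at 0.38, 0.43 and 0.39 and to Mfge8 at 0.36, 0.39 and 0.33. These groups were not separate, as Wfdc18 had r of 0.34, 0.24 and 0.48 with Csn3. For other pairs r was near 0, at -0.01, -0.07 and 0.07 for Trf with Ltf and at -0.09, -0.02 and -0.03 for Lalba with Mfge8, the genes that moved in opposite directions at 60 min.

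The 3 rare caseins formed the third group, held together mainly by Csn2. Csn2 was joined to Csn1s1 at 0.40, 0.48 and 0.31 and to Csn1s2a at 0.39, 0.64 and 0.31. The pair of Csn1s1 and Csn1s2a was weaker, at 0.24, 0.40 and 0.13. At 60 min Csn1s1 had higher r with Wap (0.17) and Ltf (0.16) than with Csn1s2a. Of 36, 29 and 25 thinned cells with a Csn2 UMI, 22, 14 and 12 also held Csn1s1 (61.1, 48.3 and 48.0%), against 4.14, 3.72 and 4.32% of the cells without Csn2. Conversely, of the 156, 161 and 123 cells with Csn1s1, 14.1, 8.70 and 9.76% held Csn2, against 0.449, 0.392 and 0.526% of the cells without it. Most cells with Csn1s1 thus held no Csn2 UMI at this depth. At least 1 of Csn1s1, Csn1s2a, Csn2 and Wap was found in 14.6, 13.5 and 13.1% of thinned cells, at least 2 of the 4 in 1.80, 1.33 and 1.93% and all 4 in 4, 3 and 0 cells. Csn3, a neighbour in the same gene cluster, had r of at most 0.11 with the 3 rare caseins, and it was found in 88.6 to 93.0% of cells.

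**Figure D5:**
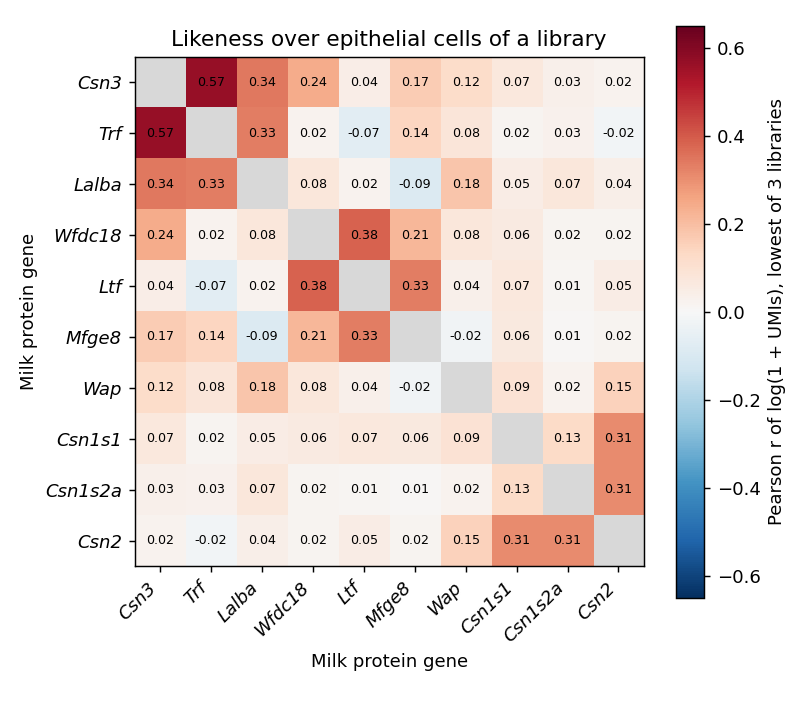
Pearson's r of log(1 + UMIs) between milk protein genes over epithelial cells thinned to 2000 UMIs, as the lowest value of the 3 libraries (colour and number). Csn3, Trf and Lalba, then Wfdc18, Ltf and Mfge8, and then Csn1s1, Csn1s2a and Csn2 hold most of the higher values, up to 0.57 for Csn3 with Trf, and Csn3 with Wfdc18 is at 0.24.

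The milk protein genes themselves were left out of the next ranking, although several of them had higher r with each other, as given above. Among the other genes of 3877 found in at least 5% of these cells in every library, the gene most like Csn3 was Lcn2, which encodes an iron-siderophore binding protein also secreted in milk, with r of 0.69, 0.65 and 0.65, followed by Igfbp5 at 0.47, 0.52 and 0.44 and Lrg1 at 0.38, 0.38 and 0.41. Trf had the same first pair, Lcn2 at 0.64, 0.64 and 0.68 and Igfbp5 at 0.42, 0.52 and 0.44. Outside the 10, Lalba was most like Xbp1, a transcription factor of secretory cells, at 0.31, 0.32 and 0.33. Mfge8 was most like Spp1, osteopontin, at 0.52, 0.50 and 0.52, and Wfdc18 most like Muc15, a membrane mucin, at 0.28, 0.33 and 0.37. For Ltf the likest gene outside the 10, Ogfrl1, reached 0.22, 0.22 and 0.27, and for Csn1s1, Csn1s2a, Csn2 and Wap no gene outside the 10 reached 0.2 in all 3 libraries.

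Related genes were counted in lists of 14 each. Of the 14 regulators of prolactin signalling and alveolar fate, 5 were past 1.5-fold and higher at 15 min (Prlr at 1.62, Gata3 at 1.54, Stat5a at 1.56, Esr1 at 1.57 and Pgr at 1.78 times the control, the last 2 at under 3 CPM) and none lower, beside 11.9 and 8.45% of all genes tested, with a median of 1.38 beside 1.14. With TMM factors 1 of the 5, Pgr at 1.57 times, stayed past the limit, and Prlr was at 1.43, Stat5a at 1.37, Gata3 at 1.36 and Esr1 at 1.38 times. At 60 min 0 were higher and 1, Pgr, was lower at 0.646 (0.281 to 1.40) times, beside 7.91 and 5.93% of all genes tested, and the median was 1.02 beside 0.996. Elf5, at 257, 316 and 261 CPM, and Nfib, at 634, 905 and 703 CPM, were the most abundant of the list and within the limit in both. Jak2, the kinase bound to the prolactin receptor, was at 14.1, 12.8 and 13.2 CPM.

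Of the 14 other secreted milk proteins 11 could be tested. At 15 min 1 was higher, Fcgbp, at 1.95 times the control, and 3 were lower, Lyz2 at 0.306, Saa3 at 0.523 and Cel at 0.576 times, beside 11.9% of all genes higher and 8.45% lower. Lyz2, a lysozyme of macrophages, moved here beside C1qa, a macrophage gene, at 195 and 106 CPM in the epithelial gate of the control and 15 min libraries. At 60 min Spp1 was higher, at 1.63 times the control (13768 and 22465 CPM), and Saa3 was lower at 0.526 times, beside 7.91% of all genes higher and 5.93% lower. Lcn2, at 11020, 11512 and 12536 CPM, was within the limit throughout.

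Of the 14 genes of milk fat and lactose 13 could be tested. At 15 min Slc34a2, a phosphate transporter of milk-secreting cells, was higher at 2.19 times and Scd1, a fatty acid desaturase, at 1.86 times the control. Fabp3 (0.232, 0.0766 to 0.594, times) and Lpl (0.608 times) were lower, so that 4 of 13 were past the limit beside 20.4% of all genes tested. Fabp3 was near the floor, at 0.146 CPM at 15 min against 0.629 CPM in the control. With TMM factors Slc2a1, a glucose transporter, joined the lower genes at 0.651 times. At 60 min 0 of the 13 were past the limit, beside 13.8% of all genes tested. B4galt1, the galactosyltransferase that Lalba modifies, was at 48.8, 54.8 and 46.9 CPM, and at 60 min it was at 0.961 times the control where Lalba was at 0.568 times. Aqp5, a water channel, was at 1067, 1228 and 784 CPM and Plin2, which coats lipid droplets, at 197, 243 and 264 CPM.

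In the kidney libraries, which held 69691783 to 116998401 UMIs, the caseins, Lalba and Wap were nearly absent, with 0 to 5 UMIs for each of these 6 genes in a whole library. Lalba had the most, 2, 3 and 5 UMIs by library, and Csn1s2a, Csn2 and Wap had 0 in all 3, with exact Poisson upper limits of 0.0529, 0.0315 and 0.0327 CPM. Wfdc18 was at 1.06, 0.222 and 1.33 CPM and Ltf at 0.430, 0.188 and 1.03 CPM. Trf, at 44.4, 7.44 and 43.7 CPM, and Mfge8, at 18.0, 6.67 and 47.1 CPM, were again the genes found outside the mammary epithelium, both lowest in the 15 min library, and the cell types behind these kidney values were not separated here.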

How the data were processed

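The authors used Cell Ranger 3.1.0 and mm10, per the submitters' processing notes, and merged the libraries of each tissue with the Aggr command. That command normalizes depth between libraries by downsampling reads. The deposited UMI counts are whole numbers after that step, with no further scaling. From these counts, cells were kept and gated by marker UMIs in Python 3.11.15 (numpy 2.4.6, scipy 1.17.1), UMIs were summed over a gate and library and divided by the gate's total. Other cell types had 0 Epcam UMIs and at least 2 UMIs of Csf1r (macrophage), Cd3e, Cd3g, Cd3d and Nkg7 (T and NK), Flt3 (dendritic), Cd79a and Ms4a1 (B), Pecam1 and Cdh5 (endothelial), Pdgfra (fibroblast), Rgs5 with at least 1 of Pdgfrb (pericyte), or Csf3r together with S100a8 and S100a9 (granulocyte), and a cell in 2 such gates was left out. Gates of under 10 cells (B cells, and dendritic cells at 15 min) are not shown, and the B cell check markers are not reported here. Genes with at least 30 UMIs over the 3 epithelial sums were tested against the fold. Thinning used seed 0. The code was tested on simulated data. edgeR 4.0.16 (TMM) and DESeq2 1.42.0 gave scaling factors only, since 1 library per condition allows no test.

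All 10 genes are named, and related genes could be named where past 1.5-fold or over 100 CPM, though not all such genes are. Jak2, B4galt1, Slc2a1, G0s2 and Retnlg were added after their values were seen, as was the scaling of the related lists. The most similar genes, the 10 left out, had r of at least 0.2 in every library. The genes, lists and alternatives were chosen with earlier results of these data known.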

Additional observations from a re-analysis of the deposited data

How the results depend on the processing

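Relative to the control, the number of milk protein genes past 1.5-fold at 15 min went from 3 to 1 with no limits on cells, with no upper limit on genes, with cells of other gates left out, with every cell weighted alike and without the 10 highest cells of each gene, and to 1 at a limit of 2-fold. It was 2 with at least 4 Epcam UMIs, with TMM or DESeq2 factors and without Krt5 and cycling cells, where Ltf left the list, and 3 in the other 4 alternatives. At 60 min it was 3 with every cell weighted alike (without Csn2) and 0 at 2-fold, and the same 4 genes were past 1.5-fold in the other alternatives, in 3 of which Csn2 was lower instead of higher. With every gene that had a UMI in both libraries counted, 27.8 and 21.8% of all genes were past 1.5-fold at 15 and 60 min. Csn2 reversed in both comparisons: at 15 min it was at 0.802 times with no limits on cells, 0.791 times with no upper limit on genes and 0.742 times without its 10 highest cells, and at 60 min at 0.661, 0.624 and 0.604 times. Over the 11 alternatives not added later, Lalba at 60 min ran from 0.506 to 0.592, Ltf from 1.60 to 1.77 and Mfge8 from 1.64 to 1.76 times the control. The alternatives without the highest or 10 highest cells were added after the data had been seen, and the cause of these shifts was not tested. Without thinning, 113 of 200 shares of cells with a UMI left their interval, against 8 with no limits on cells. The depth limits Csn1s2a, Csn2, Csn1s1 and Wap outside the epithelial gate. No paired analysis was possible because each condition is 1 library.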
